A study of Homo sapiens with 24 samples.

Results

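The response to AM-9747 was compared between BXPC3 and PSN1, both established human pancreatic adenocarcinoma lines. For every gene the AM-9747 minus vehicle change in PSN1 was taken away from the same change in BXPC3. All columns of the deposited count table that carry either line's name were used, 16 libraries of 24 in the series: 4 BXPC3 with AM-9747, 4 BXPC3 with vehicle, 4 PSN1 with AM-9747 and 4 PSN1 with vehicle. Both lines received the same dose, 100 nM, and were harvested on day 6, and the vehicle was DMSO. The submitters describe the lines as lacking MTAP, while the genotype label of all 16 libraries reads WT, with no engineered allele named. Nothing in the labels tells whether replicates were grown separately, so each p-value reflects just the scatter among these libraries, which may be technical. Of 60366 entries in the table, 21120 genes had enough counts to be tested. A positive log2 difference means that the response in BXPC3 was the higher, and a negative one that it was the lower.

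PRMT5 places symmetric dimethyl marks on arginines of the Sm proteins of the spliceosome, of histones and of other RNA-binding proteins, in a complex with WDR77. MTAP breaks down methylthioadenosine, and in cells without it this metabolite builds up and partly occupies PRMT5. AM-9747 is a PRMT5 inhibitor that acts together with methylthioadenosine.

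Libraries held 22.4 to 45.6 M counts. Mitochondrial transcripts took 4.34 to 10.2% of counts in BXPC3 with AM-9747 and 6.6 to 8.98% with vehicle, but 7.98, 14.1, 26.8 and 31.1% in PSN1 with AM-9747 and 17.4, 43.8, 37.6 and 33.5% with vehicle. Within a group, libraries correlated at a mean r of 0.966 to 0.98 in BXPC3, 0.938 to 0.948 in PSN1 with AM-9747 and 0.854 to 0.907 in PSN1 with vehicle. The PSN1 vehicle libraries thus spread most. Replicate 1 had the most counts (38.4 M) and the most genes detected of its group (24738, against 16646 to 21467). Replicate 3 had the lowest mean r (0.854), the fewest counts (22.4 M) and the fewest genes detected. Gene counts varied between replicates with a biological coefficient of 26.6% in BXPC3 and 55.1% in PSN1. The part of the mitochondrial share in the results was examined by adding it as a covariate and by leaving the mitochondrial genes out. With the covariate, 1086 genes were called for the response difference, of which 828 were among the 1309 called without it. With the mitochondrial genes left out, 1227 genes were called. Without PSN1 vehicle replicate 1, 4412 genes were called, 1308 of the 1309 among them. Levels below are CPM (counts relative to library size) with TMM scaling, in replicate order 1 to 4.

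The response differed between the lines at 1309 of 21120 genes (6.2%) at an adjusted p below 0.05 (edgeR quasi-likelihood test with Benjamini-Hochberg adjustment over all genes, also for all adjusted p below). It was higher in BXPC3 at 546 genes (2.59%) and lower at 763 (3.61%), and 519 and 714 of these differed by 2-fold or more. List counts below stand beside these shares of all genes, 2.59% higher and 3.61% lower. In BXPC3, 724 genes rose (3.43%) and 1149 fell (5.44%) with AM-9747. In PSN1, 2611 genes rose (12.4%) and 2021 fell (9.57%). Counts of list members that rose or fell in a line stand beside these shares of that line. The median of all differences was -0.15 on the log2 scale, and 11765 genes had a difference below zero.

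The responses of each line in the text come from the fit of all 16 libraries, which share 1 estimate of spread, and they depend on it. Of 98 named genes called in PSN1, 71 were also called when PSN1 was fitted by itself, and of 46 called in BXPC3, 45 were called when BXPC3 was fitted by itself. A further 28 of the 81 named genes that did not pass in BXPC3 passed when BXPC3 was fitted by itself. Scaling moved the split of higher and lower calls: size factors gave 709 higher and 625 lower genes with a median difference of -0.01, and no scaling gave 328 and 1043 with a median of -0.41. Fitted by itself, BXPC3 had 5158 genes called and PSN1 had 1954, against 1873 and 4632 in the shared fit. The split by line that follows is that of the shared fit and depends on its spread. There, most genes that differed passed in 1 line and not in the other. Of the 763 genes with a lower response in BXPC3, 141 fell in BXPC3 without passing in PSN1, 514 rose in PSN1 without passing in BXPC3, and 31 fell in BXPC3 and rose in PSN1. Of the 546 with a higher response, 137 rose in BXPC3 without passing in PSN1, 304 fell in PSN1 without passing in BXPC3, and 34 rose in BXPC3 and fell in PSN1. The lines shared 813 called genes, 43.4% of the 1873 BXPC3 calls and 17.6% of the 4632 PSN1 calls. Among the shared genes 748 moved the same way and 65 moved oppositely, and the difference itself passed at all 65. Across genes, which are not independent replicates, the responses correlated at r = 0.187, or at 0.319 over the 12838 genes with at least 1 CPM in each line.

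**Figure D1:**
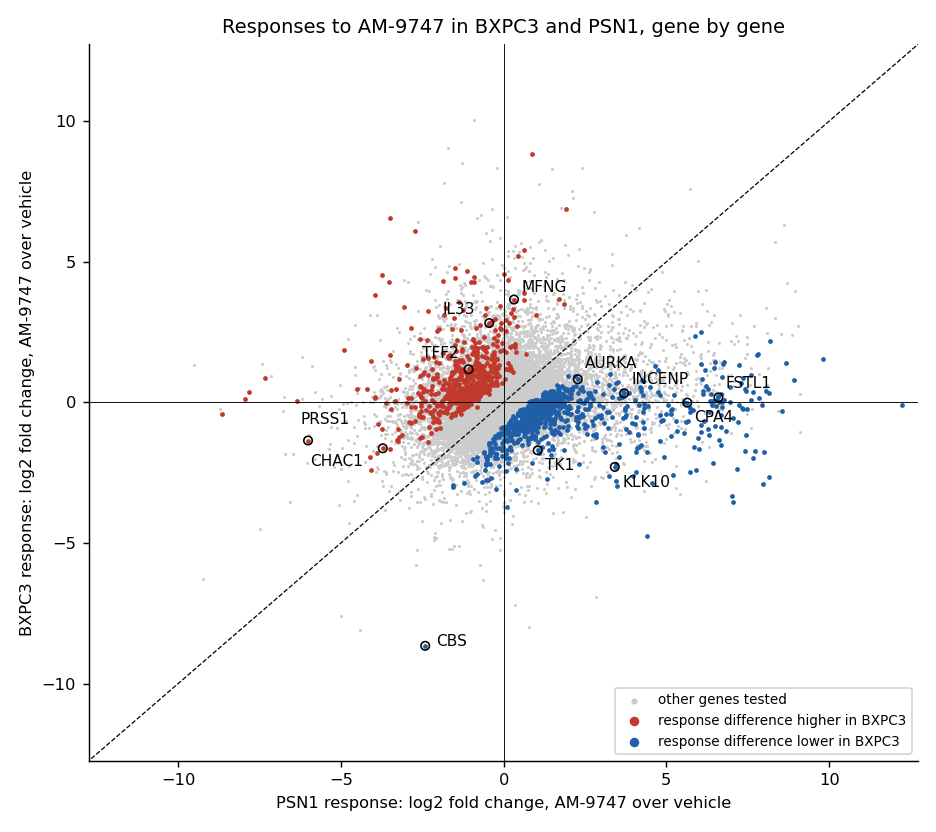
Log2 response to AM-9747 in BXPC3 (y axis) against that in PSN1 (x axis), 1 point per gene tested, with genes coloured by whether the response difference was called higher (546 genes) or lower (763 genes) in BXPC3. The called genes lie off the diagonal, and most of the lower ones sit at a positive PSN1 response and near 0 in BXPC3.

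Genes of mitosis had the lower response in BXPC3. Of 65 tested members of a mitosis list, 36 had a lower response in BXPC3 and 0 a higher one, and all 65 differences lay below zero, between -3.38 and -0.17, with a median of -1.60 against -0.15 over all genes. In BXPC3, 3 of the 65 rose and 0 fell, with a median response of 0.29, while in PSN1 60 rose and 0 fell, with a median of 1.84. In fits of each line alone, 24 rose and 4 fell in BXPC3, and 46 rose in PSN1. The summed level of the list was 7716, 7100, 6644 and 6290 CPM in BXPC3 with AM-9747, against 5724, 6044, 5690 and 5112 CPM with vehicle. In PSN1 it was 4015, 3503, 3225 and 3337 CPM with AM-9747 and 1475, 1201, 1072 and 1188 CPM with vehicle. Thus in each line every library with AM-9747 lay above every vehicle library, with the smaller rise in BXPC3. The vehicle level of PSN1 was the lowest of the 4 groups. In bulk RNA, more cells in a phase and more RNA per cell cannot be told apart. The number of mitosis genes called was 21 to 51 with single libraries left out, 51 without PSN1 vehicle replicate 1 and 21 without BXPC3 AM-9747 replicate 2 or 3 or BXPC3 vehicle replicate 1, 2 or 3. It was 28 with the mitochondrial share as covariate.

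INCENP, the scaffold of the chromosomal passenger complex (chr11:62123973-62153163 in GRCh38), had the lowest difference of the list. It stood at 100.4, 89.4, 66.1 and 45.6 CPM in BXPC3 with AM-9747, against 75.2, 66.4, 60.4 and 38.6 CPM with vehicle, and at 159, 166, 239 and 170.4 CPM in PSN1 with AM-9747, against 13.3, 15.5, 13.8 and 13.8 CPM with vehicle. The BXPC3 groups overlapped and the PSN1 groups lay far apart. The difference was -3.38 ± 0.35 (SE, adjusted p = 7.37e-05). ANLN, which scaffolds the cleavage furrow (chr7:36389806-36453791), had 242, 223, 193 and 173 CPM in BXPC3 with AM-9747 and 204, 214, 194 and 103 CPM with vehicle, which overlap. Its PSN1 values were 77, 69.6, 56.1 and 62.1 CPM with AM-9747, against 18.9, 11.2, 3.22 and 8.88 CPM with vehicle, and its difference was -2.42 ± 0.51 (SE, adjusted p = 0.0104). BIRC5, the passenger protein survivin, differed by -2.27 ± 0.43 (SE, adjusted p = 0.00547), and CDK1, the mitotic kinase, by -1.72 ± 0.35 (SE, adjusted p = 0.00938). Both rose in PSN1, by 2.35 and 1.92, and did not pass in BXPC3. AURKA, the centrosomal kinase, rose in both lines, to 235, 216, 214 and 209 CPM in BXPC3 with AM-9747, against 122, 129.5, 119 and 124 CPM with vehicle, and to 237, 197, 179.6 and 197 CPM in PSN1 with AM-9747, against 57.4, 45.5, 29.3 and 34.8 CPM with vehicle. Its response was 0.82 ± 0.19 in BXPC3 and 2.28 ± 0.20 in PSN1, a difference of -1.46 ± 0.27 (SE, adjusted p = 0.0049).

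DNA replication genes also had the lower response in BXPC3, and here several fell in BXPC3 while rising in PSN1. Of 51 tested members of a replication and G1/S list, 23 had a lower response in BXPC3 and 0 a higher one, with a median of -1.48. In BXPC3 9 fell and 0 rose (median -0.38), and in PSN1 27 rose and 0 fell (median 0.97). In each line alone, 22 fell and 3 rose in BXPC3, and 18 rose in PSN1. The summed level was 2061, 2062, 2079 and 2113 CPM in BXPC3 with AM-9747, against 2569, 2488, 2548 and 2714 CPM with vehicle, and 1814, 1593, 1575 and 1486 CPM in PSN1 with AM-9747, against 1046, 859, 823 and 879 CPM with vehicle. The groups of neither line overlapped. The count of lower genes was 17 to 34 with single libraries left out, 34 without PSN1 vehicle replicate 1.

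TK1, the thymidine salvage kinase (chr17:78174075-78187233), had 15.1, 18, 23 and 20.9 CPM in BXPC3 with AM-9747, against 60, 49.3, 59 and 82.3 CPM with vehicle. Its PSN1 values were 10.2, 9.45, 11.2 and 7.29 CPM with AM-9747 and 5.14, 4.14, 2.73 and 6.32 CPM with vehicle. It fell in BXPC3 (-1.70 ± 0.25) and rose in PSN1 (1.05 ± 0.25), a difference of -2.75 ± 0.35 (SE, adjusted p = 0.000372) with no overlap in either line (28.5% of all genes had no overlap in BXPC3 and 19.5% in PSN1). MCM4, a subunit of the replicative helicase, had 57.2, 49.4, 45.1 and 45.9 CPM in BXPC3 with AM-9747, against 130.2, 127, 125 and 105 CPM with vehicle, and 39.5, 32.6, 32.6 and 26.8 CPM in PSN1 with AM-9747, against 20.5, 11.3, 20.7 and 14.5 CPM with vehicle. Its difference was -2.27 ± 0.28 (SE, adjusted p = 0.000308). GINS4, of the same helicase, differed by -2.75 ± 0.52 (SE, adjusted p = 0.00567), and E2F1, the transcription factor of S-phase entry (chr20:33675683-33686404), by -1.54 ± 0.25 (SE, adjusted p = 0.0024). Both fell in BXPC3, by 1.57 and 0.68 on the log2 scale, and rose in PSN1, by 1.18 and 0.86. RRM1, the large subunit of ribonucleotide reductase, rose in PSN1 without passing in BXPC3 by 2.29 and differed by -2.79 ± 0.60 (SE, adjusted p = 0.0128), or by -3.45 without PSN1 vehicle replicate 1. ORC1 of the origin recognition complex also rose in PSN1 without passing in BXPC3 (1.54), with a difference of -2.25 ± 0.42 (SE, adjusted p = 0.00529). RFC5 of the clamp loader fell in BXPC3 without passing in PSN1 (-1.23), with a difference of -1.43 ± 0.27 (SE, adjusted p = 0.00566).

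Homologous recombination and cohesin genes added a few calls of the same sign. Of 42 tested recombination and Fanconi genes 4 had a lower response in BXPC3 and 0 a higher one (median -0.81). Among them were BRCA1 (-1.66 ± 0.35 SE, adjusted p = 0.0106), the recombination motor protein RAD54L (-1.53) and the ubiquitin-conjugating UBE2T (-1.35), and each of these rose in PSN1 and did not pass in BXPC3. The 4 lower genes are 9.52% of the recombination list, beside 3.61% of all genes. Their count was 2 to 13 with single libraries left out, 13 without PSN1 vehicle replicate 1. Of 16 cohesin genes, CDCA5, the protector of sister chromatid cohesion (-2.01 ± 0.36 SE, adjusted p = 0.00476), and SMC1A (-1.63) were lower in BXPC3 response. They are 12.5% of that list. Calls that ended when single libraries were left out, with the number of such libraries and the highest adjusted p, were UBE2T (12, up to 0.086 without BXPC3 AM-9747 replicate 2) and SMC1A (9, up to 0.0814 without BXPC3 AM-9747 replicate 3).

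**Figure D2:**
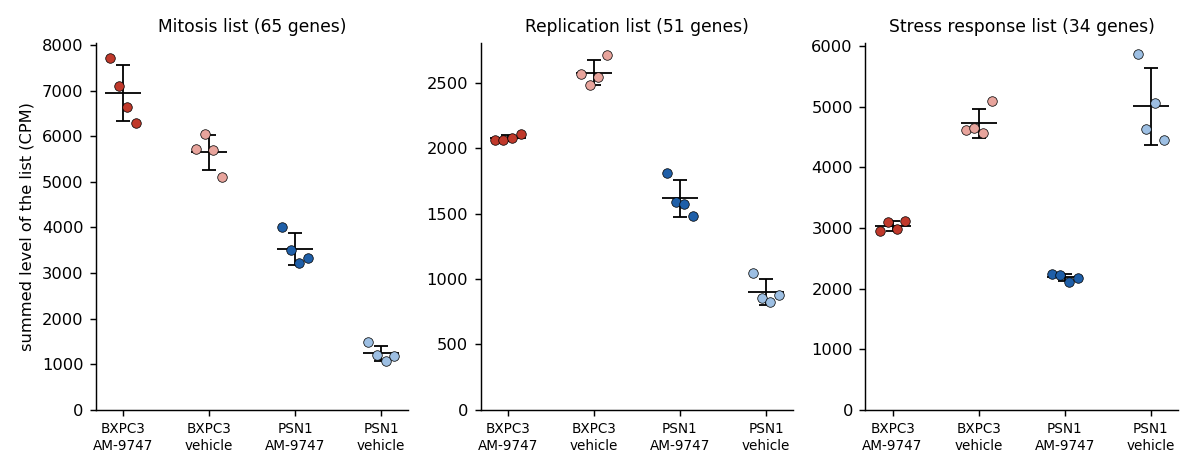
Summed level (CPM) of the mitosis (65 genes), replication (51 genes) and stress response (34 genes) lists in each library of the 4 groups, with points for libraries and the mean and SD as bars. The mitosis sum lies higher with AM-9747 than with vehicle in both lines. The replication sum lies higher with AM-9747 in PSN1 and lower in BXPC3, and the stress response sum lies lower with AM-9747 in both lines.

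Promoters of genes that carry these differences are shown because their lists hold short sequence elements more often than all tested genes do. The promoters shown are among those that hold the marked element. Each window runs from 250 bases before to 50 after the start site in GRCh38.p14 (RefSeq), 5′ to 3′ on the gene's strand, with matches in capitals. The first pair, INCENP (chr11:62123761-62124060, plus strand) and ANLN (chr7:36389612-36389911, plus strand), has the cell cycle homology element TTTGAA marked, read on both strands.
INCENP: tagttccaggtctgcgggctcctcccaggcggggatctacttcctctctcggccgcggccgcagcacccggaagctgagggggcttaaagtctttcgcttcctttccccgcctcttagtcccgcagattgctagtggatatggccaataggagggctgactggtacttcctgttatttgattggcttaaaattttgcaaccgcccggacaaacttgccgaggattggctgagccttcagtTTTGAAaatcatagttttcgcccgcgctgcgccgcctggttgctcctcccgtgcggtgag
ANLN: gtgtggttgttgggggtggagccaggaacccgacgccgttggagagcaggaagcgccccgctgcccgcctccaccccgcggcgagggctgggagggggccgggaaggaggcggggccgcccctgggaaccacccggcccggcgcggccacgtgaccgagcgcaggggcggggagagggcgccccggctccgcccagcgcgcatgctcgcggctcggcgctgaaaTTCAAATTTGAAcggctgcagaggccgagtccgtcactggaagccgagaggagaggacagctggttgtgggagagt
The next pair, ORC1 (chr1:52404374-52404673, minus strand) and E2F1 (chr20:33686336-33686635, minus strand), has an E2F motif marked, searched as TTCCCGC or TTGGCGC on both strands.
ORC1: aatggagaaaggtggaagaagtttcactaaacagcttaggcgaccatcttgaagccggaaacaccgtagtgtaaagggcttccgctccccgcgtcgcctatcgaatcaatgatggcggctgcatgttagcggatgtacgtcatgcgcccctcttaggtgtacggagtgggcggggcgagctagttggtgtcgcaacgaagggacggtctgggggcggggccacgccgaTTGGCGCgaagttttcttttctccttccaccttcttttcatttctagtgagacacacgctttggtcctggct
E2F1: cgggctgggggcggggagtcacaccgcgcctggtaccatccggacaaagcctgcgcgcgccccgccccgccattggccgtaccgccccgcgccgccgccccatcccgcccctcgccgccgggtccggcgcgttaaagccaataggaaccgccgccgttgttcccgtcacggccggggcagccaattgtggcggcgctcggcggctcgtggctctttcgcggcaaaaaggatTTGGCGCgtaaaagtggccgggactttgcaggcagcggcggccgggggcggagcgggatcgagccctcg
The last pair, CHAC1 (chr15:40953221-40953520, plus strand) and ASNS (chr7:97872359-97872658, minus strand), belongs to the amino acid stress response described further on and has the C/EBP-ATF element TGATGNAA marked on either strand.
CHAC1: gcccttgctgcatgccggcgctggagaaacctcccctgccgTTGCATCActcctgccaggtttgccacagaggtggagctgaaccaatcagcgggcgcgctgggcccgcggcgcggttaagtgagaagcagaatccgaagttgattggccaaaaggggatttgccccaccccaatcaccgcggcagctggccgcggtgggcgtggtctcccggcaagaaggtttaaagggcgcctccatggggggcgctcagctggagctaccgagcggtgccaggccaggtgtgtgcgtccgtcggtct
ASNS: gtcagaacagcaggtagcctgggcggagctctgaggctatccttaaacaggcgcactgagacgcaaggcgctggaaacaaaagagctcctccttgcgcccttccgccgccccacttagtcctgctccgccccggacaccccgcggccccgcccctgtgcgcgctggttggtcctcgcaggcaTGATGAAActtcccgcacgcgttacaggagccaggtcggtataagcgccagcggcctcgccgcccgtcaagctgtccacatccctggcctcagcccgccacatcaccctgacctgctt
TTTGAA was found in 37 of 55 mitosis promoters (67.3%), against 10.3% of the 12681 tested genes with a window, and in 14.9% of those with a lower response in BXPC3. The E2F letters were in 28 of 43 replication promoters (65.1%), against 13.5% of all, and in 16.8% of the genes with a lower response. TGATGNAA was in 5 of 27 stress response promoters (18.5%), against 1.89% of all, and in 3.36% of the genes with a higher response in BXPC3. The CCAAT box, which is not marked, was in 76.4% of mitosis, 55.8% of replication and 55.6% of stress response promoters, against 36.6% of all. TTTGAA and the E2F letters cannot overlap each other. A match is a description of these letters, not of a bound site.

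Genes of the amino acid stress response that ATF4 controls fell at many members in both lines, and CHAC1 and ASNS fell further in PSN1. Of 34 tested members 6 had a higher response in BXPC3, meaning a smaller fall or no called fall there, and 3 a lower one, with a median of 0.40. In BXPC3 14 fell and 1 rose (median -0.71), and in PSN1 23 fell and 1 rose (median -1.14). The summed level was 3040 ± 82.1 CPM in BXPC3 with AM-9747, against 4730 ± 244 CPM with vehicle, and 2191 ± 57.1 CPM in PSN1 with AM-9747, against 5008 ± 631 CPM with vehicle (mean ± SD, n = 4 each). With single libraries left out, 4 to 9 members were higher and 1 to 3 lower.

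CHAC1, a glutathione-degrading enzyme (chr15:40952962-40956519), had 10.6, 10.4, 11.4 and 11 CPM in BXPC3 with AM-9747, against 31.5, 30.4, 31.8 and 40.6 CPM with vehicle. PSN1 libraries held 2.86, 3.71, 5.06 and 4.33 CPM with AM-9747, against 41.3, 57.1, 70.4 and 40.1 CPM with vehicle. It fell in both, by 1.63 and 3.71 on the log2 scale, a difference of 2.08 ± 0.31 (SE, adjusted p = 0.00124). ASNS, asparagine synthetase (chr7:97852118-97872542), had 46.2, 51.5, 51.5 and 67 CPM in BXPC3 with AM-9747, against 116, 139.6, 125 and 137 CPM with vehicle, and 46.6, 48, 43.8 and 60.9 CPM in PSN1 with AM-9747, against 369, 258, 311 and 251 CPM with vehicle. All its treated libraries had similar levels, the PSN1 vehicle level was the highest, and the difference was 1.32 ± 0.25 (SE, adjusted p = 0.00625). SESN2, an amino acid sensor and also a p53 target, had 40.6, 39.7, 34 and 33 CPM in BXPC3 with AM-9747 and 34.1, 35.7, 36.3 and 31.1 CPM with vehicle. PSN1 libraries held 9.05, 6.88, 6.53 and 7.79 CPM with AM-9747, against 28.8, 29.7, 56.3 and 24.4 CPM with vehicle, and the difference was 2.30 ± 0.33 (SE, adjusted p = 0.000867). The pseudokinase TRIB3 (1.87 ± 0.32 SE, adjusted p = 0.0032), cystathionine gamma-lyase CTH (1.65) and ATF4 itself (1.08) likewise fell in PSN1 and did not pass in BXPC3.

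Members with a lower response in BXPC3 were CBS, ATF3 and PYCR1. CBS, the first enzyme of transsulfuration (chr21:43053191-43076943), had 0 counts in all 4 BXPC3 libraries with AM-9747 and 235 in the vehicle libraries, at least 72.1-fold lower against a floor of 3 counts over the group. In PSN1 it had 22.3, 12.8, 29.3 and 27.4 CPM with AM-9747, against 95.4, 106, 174 and 112 CPM with vehicle, so it fell in both lines (difference adjusted p = 0.00148). ATF3, a stress-induced repressor, rose in both lines, by 0.92 ± 0.21 in BXPC3 and 2.19 ± 0.22 in PSN1 (difference -1.27 ± 0.30 SE, adjusted p = 0.0184). PYCR1, of proline synthesis, fell in BXPC3 by 1.39 on the log2 scale and did not pass in PSN1 (-0.29). Calls lost without single libraries were those of CTH (9, up to 0.0732 without BXPC3 AM-9747 replicate 4), ATF4 (11, up to 0.112 without BXPC3 AM-9747 replicate 4), ATF3 (2, up to 0.0529 without BXPC3 vehicle replicate 1) and PYCR1 (13, up to 0.0956 without BXPC3 AM-9747 replicate 2).

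**Figure D3:**
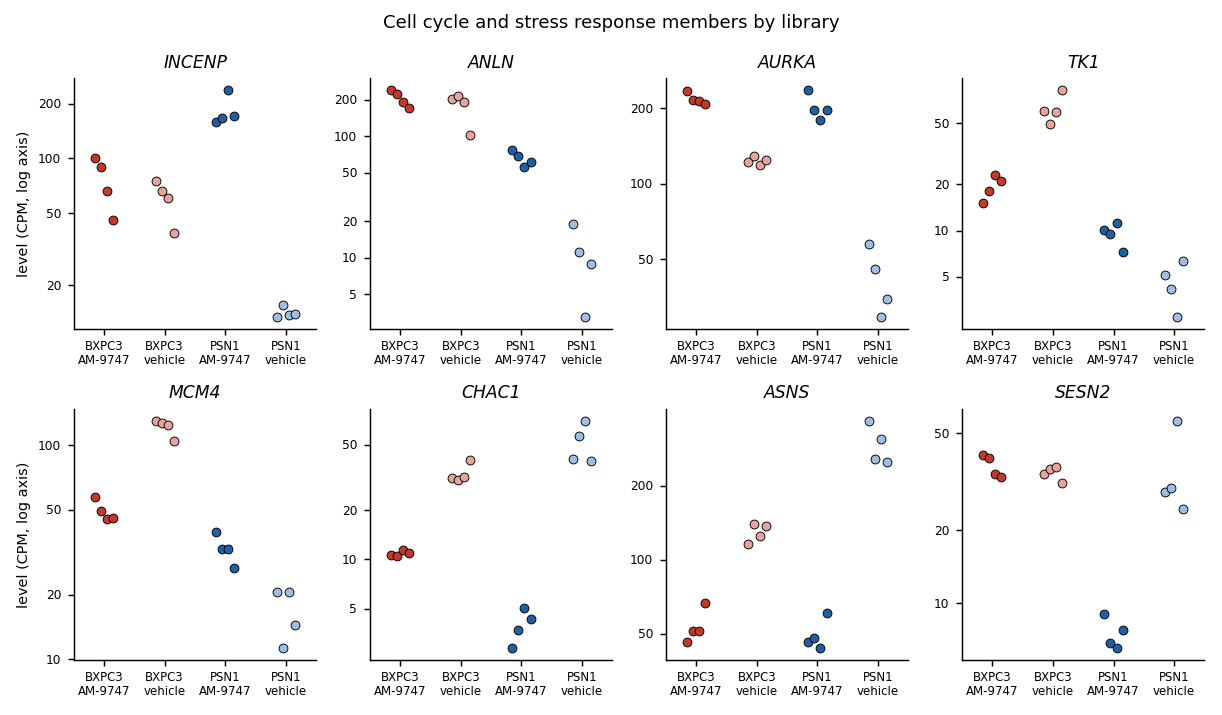
Level in CPM, on a log axis, of INCENP, ANLN, AURKA, TK1, MCM4, CHAC1, ASNS and SESN2 in each library, grouped by line with AM-9747 left of vehicle. The first 5 genes lie higher with AM-9747 in PSN1, TK1 and MCM4 lie lower with AM-9747 in BXPC3, and SESN2 lies lower with AM-9747 in PSN1 alone.

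PRSS12, KLK10, SLC44A4, WNT10A and an entry of RRM2 fell in BXPC3 and rose in PSN1. PRSS12, a secreted serine protease (chr4:118280038-118353003), had 2.88, 3.34, 2.36 and 2.3 CPM in BXPC3 with AM-9747, against 18.5, 17.9, 17.1 and 12.6 CPM with vehicle. Its PSN1 values were 1.1, 0.657, 0.481 and 1.12 CPM with AM-9747 and 0.157, 0, 0 and 0 CPM with vehicle. The difference was -6.56 ± 0.83 (SE, adjusted p = 0.000326), and it was -10.50 without PSN1 vehicle replicate 1, the one PSN1 vehicle library with a count. With PSN1 fitted by itself PRSS12 did not pass (adjusted p = 0.0783). KLK10, a kallikrein protease, had 20.3, 22.7, 22.7 and 25.1 CPM in BXPC3 with AM-9747, against 99.5, 95.3, 102 and 149 CPM with vehicle. PSN1 libraries held 45 counts with AM-9747 and 3 with vehicle, a ratio of 16.5 with a 95% counting interval of 5.29 to 82.9. SLC44A4, a choline transporter family member, had 8.5, 8.51, 8.99 and 10.5 CPM in BXPC3 with AM-9747, against 32.2, 32.5, 27.2 and 31.1 CPM with vehicle, and 38 counts in PSN1 with AM-9747 against 1 with vehicle (ratio 39, 6.59 to 1580). So these genes had most of their reads in BXPC3, and their PSN1 side rests on few counts.

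The WNT ligand WNT10A had 30, 40.1, 39.9 and 41.7 CPM in BXPC3 with AM-9747, against 112, 101, 108 and 174 CPM with vehicle, and below 1 CPM in every PSN1 library. Its difference was -3.58 ± 0.72 (SE, adjusted p = 0.0084), or -5.55 without PSN1 vehicle replicate 4. RRM2, the small subunit of ribonucleotide reductase, is split over several entries in the table, and 1 of them passed. What each entry covers is not given in the sources used here, so the values are those of the entry and not of the gene. It had 16.6, 12.8, 15.1 and 12 CPM in BXPC3 with AM-9747, against 32.6, 34.7, 35.9 and 35.6 CPM with vehicle, and 37.3, 17.8, 9.9 and 19.8 CPM in PSN1 with AM-9747, against 14.7, 7.93, 6.43 and 9.2 CPM with vehicle (difference -2.44 ± 0.46 SE, adjusted p = 0.00551). Its PSN1 groups overlapped, and it did not pass with PSN1 fitted by itself (adjusted p = 0.103). Among 9 kallikreins, KLK8 was lower in BXPC3 response beside KLK10, with 10 counts in PSN1 with AM-9747 and 0 with vehicle, at least 2.56-fold higher. Its call ended without single libraries: KLK8 (10, up to 0.194 without PSN1 AM-9747 replicate 4).

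In the opposite direction, CITED4, TFF2, APOE, SLC25A37 and ANAPC16 rose in BXPC3 and fell in PSN1. CITED4, a coactivator that binds CBP and p300 (chr1:40861051-40862366), had 53.5, 70.3, 78.8 and 105 CPM in BXPC3 with AM-9747, against 34.4, 23.9, 31.5 and 55.5 CPM with vehicle. In PSN1 it had 14.7, 15.5, 18 and 15.3 CPM with AM-9747, against 26.6, 39.3, 43.4 and 34.4 CPM with vehicle. The groups overlapped narrowly in BXPC3 and not in PSN1, and the difference was 2.26 ± 0.36 (SE, adjusted p = 0.00195). APOE, the lipid carrier, had 3.68, 3.88, 4.52 and 6.51 CPM in BXPC3 with AM-9747, against 2.16, 1.341, 2.44 and 2.79 CPM with vehicle, and 100.5, 136, 110.5 and 74 CPM in PSN1 with AM-9747, against 209, 186, 222 and 228 CPM with vehicle (difference 2.09 ± 0.34 SE, adjusted p = 0.00235). SLC25A37, the mitochondrial iron importer, had 155, 183, 218 and 225 CPM in BXPC3 with AM-9747, against 89.3, 81.3, 82.5 and 79.2 CPM with vehicle, and 156, 237, 331 and 302 CPM in PSN1 with AM-9747, against 325, 692, 403 and 612 CPM with vehicle (difference 2.22 ± 0.36 SE, adjusted p = 0.0022). ANAPC16, a subunit of the anaphase-promoting complex, was below 1 CPM in BXPC3 throughout and had 23.8, 21.4, 15.4 and 19.3 CPM in PSN1 with AM-9747, against 49, 24, 51.1 and 23.4 CPM with vehicle (difference 2.25 ± 0.46 SE, adjusted p = 0.00951). For both genes the PSN1 groups overlapped, and neither passed with PSN1 fitted by itself (adjusted p = 0.0649 and 0.0757).

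Beside PRSS12, SLC44A4 and KLK10, 7 further genes made up the 10 lowest differences among protein-coding genes that passed the naming filters. Genes without counts in a group, such as CBS and GRHL2, are outside this ranking. The filters asked for counts in every group, no overlap in 1 line or more, and an average of 5 CPM or more across all groups. That average can come from 1 line: PSN1 vehicle held 1 count of SLC44A4, 3 of KLK10, 4 of TTC9, 6 of PRSS12 and 7 of NGFR. All 7 rose in PSN1 without passing in BXPC3. CPA4, a secreted carboxypeptidase (chr7:130293134-130324180), had 106, 108, 118 and 129.9 CPM in BXPC3 with AM-9747 and 121, 123, 114 and 107 CPM with vehicle. Its PSN1 values were 33.6, 36.4, 36.1 and 33.7 CPM with AM-9747, against 0.971, 1.28, 0.109 and 0.36 CPM with vehicle, and the difference was -5.65 ± 0.49 (SE, adjusted p = 1.83e-05). FSTL1, a secreted glycoprotein that binds BMP ligands (chr3:120392293-120451253), had 158 to 201 CPM in BXPC3 with AM-9747, against 126 to 169.7 CPM with vehicle, and 26, 20.8, 12.6 and 12.9 CPM in PSN1 with AM-9747, against 0.394, 0.264, 0 and 0 CPM with vehicle (difference -6.42 ± 0.65 SE, adjusted p = 5.38e-05). NGFR, the low-affinity neurotrophin receptor, had 71.4, 70.1, 64.6 and 66.2 CPM in BXPC3 with AM-9747, against 52.9, 42.8, 50.3 and 50.3 CPM with vehicle, and 6.55, 4.11, 5.49 and 3.86 CPM in PSN1 with AM-9747, against 0.184, 0, 0 and 0 CPM with vehicle (difference -5.81 ± 0.62 SE, adjusted p = 8.46e-05). In these 3 genes every PSN1 library with AM-9747 lay above every vehicle library. NYNRIN (-5.26), the cornified envelope protein FLG (-5.02), the Notch-linked ubiquitin ligase DTX4 (-4.80) and TTC9 (-4.61) had PSN1 levels of 0.289 to 2.63 CPM with AM-9747, and their counts in PSN1 vehicle lay in 1 library each. In BXPC3, NYNRIN had 20.9, 17.2, 17.8 and 15.8 CPM with AM-9747, against 44.9, 39, 41.8 and 31.3 CPM with vehicle, FLG had 9.75, 6.48, 6.63 and 4.95 CPM with AM-9747, against 20.8, 24.6, 20.9 and 11.3 CPM with vehicle, DTX4 had 92.5 to 149 CPM with AM-9747, against 145 to 227 CPM with vehicle, and TTC9 had 15.4 to 19.9 CPM with AM-9747, against 23.9 to 29.5 CPM with vehicle. With BXPC3 fitted by itself these 4 were called lower with AM-9747 (adjusted p = 0.000417, 0.00261, 0.0118 and 0.0127) and NGFR was called higher (adjusted p = 0.00729). With PSN1 fitted by itself NYNRIN, FLG and DTX4 did not pass (adjusted p = 0.0592, 0.136 and 0.0703), and TTC9 had too few counts to be tested. Without the PSN1 vehicle library named, the fitted differences were -10.36 without PSN1 vehicle replicate 1, -10.12 without PSN1 vehicle replicate 4, -9.33 without PSN1 vehicle replicate 1 and -8.06 without PSN1 vehicle replicate 1, and FSTL1 and NGFR stood at -7.51 without PSN1 vehicle replicate 1 and -10 without PSN1 vehicle replicate 1. These fitted values depend on the prior count and are no bounds.

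Many genes with a lower response in BXPC3 were at trace level in PSN1. Of the 763 genes with a lower response in BXPC3, 181 had a PSN1 mean below 1 CPM and 97 had 0 counts in PSN1 vehicle. The 119 genes with at least 20 CPM in every BXPC3 library and below 1 CPM in PSN1 summed, in PSN1 with AM-9747, to 0.21 to 0.294% of their BXPC3 mean, and in PSN1 with vehicle to 0.109 to 0.148%. KRT5, a basal keratin at 2322 to 2633 CPM in BXPC3 with AM-9747, was at 0 in 6 of 8 PSN1 libraries, and the keratins KRT6A and KRT13 were at 0 in 4 and 1 of the 8, with at most 0.143 and 0.566 CPM. The part of these traces in the differences of genes at trace level in PSN1 was not tested. With genes kept only at 1 CPM or more in each line, 1229 genes were called.

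The 10 highest differences among protein-coding genes that passed the same naming filters came from both lines: 3 rose in BXPC3 and 7 fell in PSN1. CCL21, without counts in PSN1 with AM-9747, is outside this ranking. The BXPC3 side can rest on few counts, with 17 counts in BXPC3 with AM-9747 and 16 with vehicle for PRSS2, 32 and 11 for F2RL3, 45 and 15 for PAEP and 49 and 16 for DOC2A. PRSS1, cationic trypsinogen of the exocrine pancreas (chr7:142749468-142753076), had 0.300, 0.0857, 0.737 and 0.424 CPM in BXPC3 with AM-9747 and 0.734, 0.911, 0.617 and 1.75 CPM with vehicle. Its PSN1 values were 1.58, 1.63, 1.87 and 0.325 CPM with AM-9747, against 98, 76.1, 83.9 and 93 CPM with vehicle, and the difference was 4.65 ± 0.70 (SE, adjusted p = 0.00142). PRSS2, anionic trypsinogen, had 29.1, 25.9, 20 and 17.9 CPM in PSN1 with AM-9747, against 527, 238, 352 and 313 CPM with vehicle (difference 4.13 ± 0.93 SE, adjusted p = 0.0154). These trypsinogen genes are near-identical copies, so reads may be shared between them. They were the 2 called of 6 tested exocrine genes.

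PAEP, a secreted lipocalin (5.17 ± 0.96 SE, adjusted p = 0.00527), the stomach calpain CAPN8 (4.09 ± 0.89 SE, adjusted p = 0.013), and the vesicle protein DOC2A (3.34 ± 0.69 SE, adjusted p = 0.00965) also fell in PSN1. PAEP had 2.23, 2.74, 4.13 and 3.21 CPM in PSN1 with AM-9747, against 19.6, 27.1, 69 and 23.6 CPM with vehicle. The thrombin receptor F2RL3 differed by 3.34 ± 0.75 (SE, adjusted p = 0.0152). All 4 stayed below 1 CPM in BXPC3, where 1 library can set the response: without BXPC3 vehicle replicate 4 the difference was 6.997 for PAEP, 4.98 for CAPN8 and 4.07 for F2RL3. FUT1, which makes the H blood group antigen, was the one of the 7 with a BXPC3 level above 10 CPM, at 27.6, 32.7, 28.1 and 26 CPM with AM-9747 and 18.2, 22.7, 19.9 and 24.1 CPM with vehicle. The PSN1 values were 1.26, 0.314, 0.679 and 1.01 CPM with AM-9747, against 7.42, 5.99, 15.1 and 7.57 CPM with vehicle (difference 3.88 ± 0.48 SE, adjusted p = 0.000308). Leaving out single libraries ended the calls of PRSS2 (1, up to 0.072 without BXPC3 AM-9747 replicate 3), CAPN8 (1, up to 0.0504 without BXPC3 AM-9747 replicate 3) and F2RL3 (1, up to 0.0506 without BXPC3 AM-9747 replicate 2). PRSS2 stood at 5.66 without BXPC3 vehicle replicate 3.

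MFNG, GABRR2 and IL33 rose in BXPC3 without passing in PSN1. MFNG, a glycosyltransferase that modifies Notch (chr22:37469063-37486401), had 3.1, 3.86, 4.55 and 7.1 CPM in BXPC3 with AM-9747, against 0.475, 0.278, 0.257 and 0.445 CPM with vehicle. In PSN1 its values overlapped, at 12.3, 18.6, 43.2 and 31.7 CPM with AM-9747 and 8.66, 29.1, 28.9 and 18.2 CPM with vehicle, and the difference was 3.34 ± 0.62 (SE, adjusted p = 0.0052). GABRR2, a GABA receptor subunit, had 3.43, 4.48, 4.88 and 7.34 CPM in BXPC3 with AM-9747, against 0.605, 0.506, 0.746 and 0.716 CPM with vehicle (difference 3.23 ± 0.46 SE, adjusted p = 0.00086).

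Most cytokine genes that differed had the higher response in BXPC3. Of 39 tested members of a cytokine and NF-kappaB list 7 had a higher response in BXPC3 and 1 a lower one, with a median of 0.42. In BXPC3 8 rose and 3 fell, and in PSN1 4 rose and 6 fell. In each line alone, 16 rose and 5 fell in BXPC3, and 4 rose and 2 fell in PSN1. IL33, an alarmin of the IL-1 family (chr9:6215786-6257983), had 33.8, 27.2, 30.8 and 26.4 CPM in BXPC3 with AM-9747, against 3.97, 4.45, 3.94 and 4.37 CPM with vehicle. PSN1 libraries held 193, 181, 108 and 129 CPM with AM-9747 and 366, 174, 86.5 and 202 CPM with vehicle, which overlap, and the difference was 3.26 ± 0.45 (SE, adjusted p = 0.00066). CSF2, the growth factor GM-CSF (chr5:132073790-132076170), had 2.13, 1.91, 2.52 and 3.1 CPM in BXPC3 with AM-9747, against 0.259, 0.481, 0.412 and 0.37 CPM with vehicle, and 17.6, 17.4, 13.9 and 15.8 CPM in PSN1 with AM-9747, against 24.4, 19.4, 12.2 and 13.4 CPM with vehicle (difference 2.76 ± 0.40 SE, adjusted p = 0.000944). For both genes the level in BXPC3 with AM-9747 remained below all PSN1 libraries of that gene. TNFAIP3, the NF-kappaB feedback inhibitor A20, had 209.7, 222, 235 and 248 CPM in BXPC3 with AM-9747, against 74.7, 69.7, 71 and 51 CPM with vehicle, and differed by 1.72 ± 0.34 (SE, adjusted p = 0.00782). IL6 differed by 1.93 ± 0.39 (SE, adjusted p = 0.00794) and CSF3, the growth factor G-CSF, by 2.26 ± 0.46 (SE, adjusted p = 0.00869).

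CCL21, a chemokine that guides lymphocytes, had 29.1, 38, 43.3 and 54.5 CPM in BXPC3 with AM-9747, against 1.62, 1.64, 1.72 and 2.17 CPM with vehicle. In PSN1 it had 0 counts with AM-9747 and 5 with vehicle, all in vehicle replicate 1. The call of its difference (adjusted p = 0.0066) therefore ended without that library (adjusted p = 1, difference 4.52), while its BXPC3 response stood at 4.52 ± 0.45 (SE, adjusted p = 4.20e-05). CX3CL1 had a higher response in BXPC3 (2.73) without passing in either line. The neutrophil chemokine CXCL8 went the other way, with 28.1, 18.3, 21.4 and 25.7 CPM in BXPC3 with AM-9747, against 54.7, 49.9, 42.4 and 36.8 CPM with vehicle, and a difference of -1.54 ± 0.41 (SE, adjusted p = 0.0362). Single libraries also ended the calls of CX3CL1 (13, up to 0.11 without BXPC3 AM-9747 replicate 4) and CXCL8 (11, up to 0.0828 without BXPC3 AM-9747 replicate 2).

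Most feedback genes of the RAS-ERK pathway that differed, which its activity induces, likewise had the higher response in BXPC3. Of 21 tested members 4 had a higher response in BXPC3 and 1 a lower one (median 0.31). SPRY4, an inhibitor of receptor signalling to RAS (chr5:142310427-142326455), had 29.7, 30, 25.8 and 25.2 CPM in BXPC3 with AM-9747, against 15.8, 14.8, 14.2 and 12.7 CPM with vehicle. PSN1 libraries had 245, 274, 357 and 335 CPM with AM-9747, against 404, 513, 394 and 476 CPM with vehicle. It rose in BXPC3 and fell in PSN1, with no overlap in either line and a difference of 1.51 ± 0.23 (SE, adjusted p = 0.0017). DUSP6, an ERK phosphatase (chr12:89347232-89353271), had 169, 175, 193 and 209.7 CPM in BXPC3 with AM-9747, against 127, 126, 133 and 132 CPM with vehicle, and 536, 610, 508 and 534 CPM in PSN1 with AM-9747, against 1305, 1161, 715 and 1034 CPM with vehicle. It did not pass in BXPC3 (0.53), fell in PSN1, and differed by 1.47 ± 0.25 (SE, adjusted p = 0.0032). DUSP5, another ERK phosphatase, fell in PSN1 and differed by 1.44 ± 0.26 (SE, adjusted p = 0.00396). DUSP2 had a higher response in BXPC3 (1.73) without passing in either line. CCND1, cyclin D1, rose in PSN1 by 1.04 and had a lower response in BXPC3 (-1.23). EGR1, an immediate early factor and the one called of 15 such genes, fell in both lines and less in BXPC3 (difference 1.12 ± 0.28 SE, adjusted p = 0.0284). Without single libraries the calls of DUSP2 (13, up to 0.113 without BXPC3 AM-9747 replicate 4), CCND1 (10, up to 0.0886 without BXPC3 AM-9747 replicate 3) and EGR1 (11, up to 0.0652 without BXPC3 vehicle replicate 3) were lost.

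The trefoil factors, small peptides of gastric and intestinal mucus, were the 3 with a higher response among 21 tested surface and secreted antigens, of which 1 had a lower response in BXPC3. TFF2 had 8.28, 8.22, 12.1 and 15.3 CPM in BXPC3 with AM-9747, against 4.66, 4.83, 3.06 and 6.87 CPM with vehicle, and 28.1, 38, 29.5 and 27.2 CPM in PSN1 with AM-9747, against 67.3, 49.2, 80 and 62.4 CPM with vehicle (difference 2.25 ± 0.37 SE, adjusted p = 0.00224). TFF1 rose in BXPC3 (1.41 ± 0.34) and was -0.78 in PSN1 without passing (difference 2.18 ± 0.48 SE, adjusted p = 0.014). TFF3 had a difference of 2.00 ± 0.54 (SE, adjusted p = 0.0379) and passed in neither line alone. CEACAM6, an adhesion glycoprotein, was the lower one. It had 491, 331, 243 and 185 CPM in BXPC3 with AM-9747, against 761, 829, 784 and 526 CPM with vehicle, and rose in PSN1, to 3.04, 1.6, 0.283 and 1.05 CPM with AM-9747, against 0.341, 0.176, 0 and 0.229 CPM with vehicle. Its difference was -4.05 ± 0.79 (SE, adjusted p = 0.00684), or -3.41 without PSN1 AM-9747 replicate 1. The call of TFF3 (12, up to 0.0921 without BXPC3 vehicle replicate 1) ended without single libraries.

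**Figure D4:**
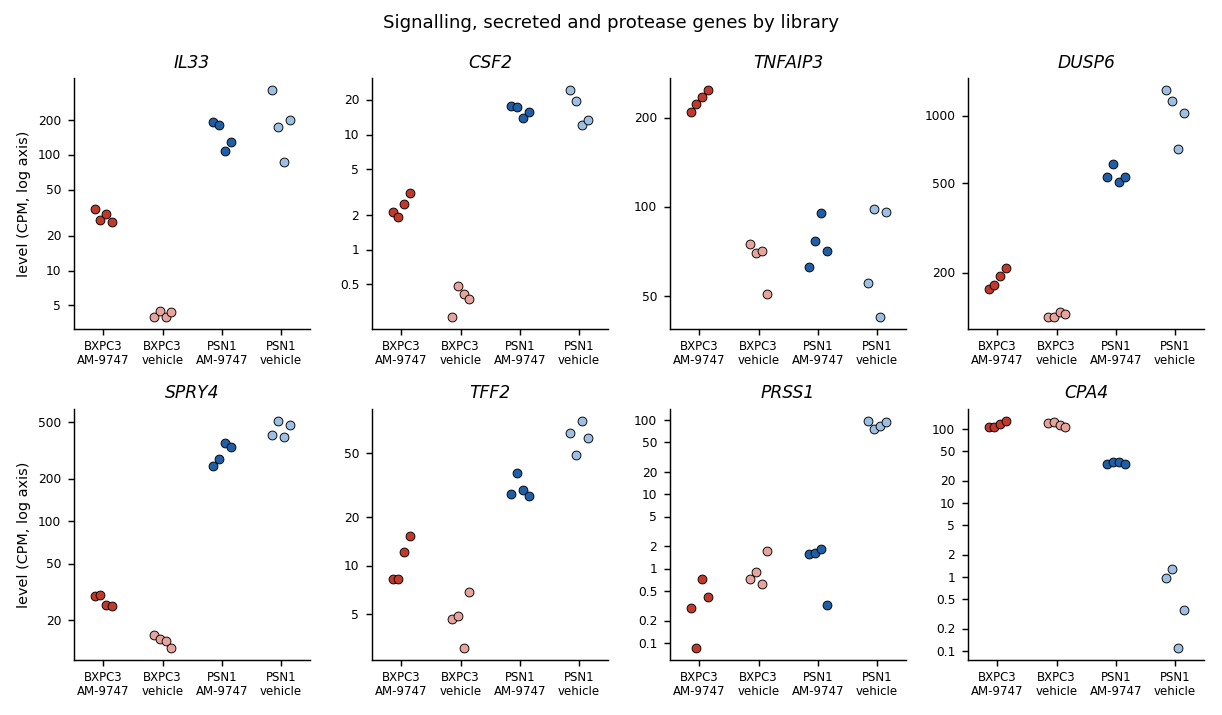
Level in CPM, on a log axis, of IL33, CSF2, TNFAIP3, DUSP6, SPRY4, TFF2, PRSS1 and CPA4 in each library, grouped by line with AM-9747 left of vehicle. IL33, CSF2 and TNFAIP3 lie higher with AM-9747 in BXPC3 and overlap in PSN1, and SPRY4 and TFF2 move in opposite directions. The AM-9747 and vehicle groups of PRSS1 and CPA4 lie apart in PSN1 and overlap in BXPC3.

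Among 28 tested p53 target and regulator genes, 4 had a higher response in BXPC3 (SESN2, BBC3, MDM4 and TNFRSF10B) and 2 a lower one (FDXR and XPC), with a median of -0.35. MDM4, the p53 inhibitor whose splicing is known to depend on PRMT5 (chr1:204516379-204558120), had 19.9, 20.2, 23.1 and 19.6 CPM in BXPC3 with AM-9747 and 16, 19, 17.8 and 14.6 CPM with vehicle. In PSN1 the values were 31.1, 34.3, 33.6 and 33.2 CPM with AM-9747 and 58.6, 68.8, 71.8 and 67.6 CPM with vehicle. It was 0.29 in BXPC3 without passing, fell in PSN1, and differed by 1.31 ± 0.21 (SE, adjusted p = 0.0022). BBC3, the pro-apoptotic protein PUMA, fell in PSN1 to 8.08, 11.4, 10.4 and 7.72 CPM with AM-9747, against 27.1, 22.2, 30.5 and 27.9 CPM with vehicle (difference 1.68 ± 0.33 SE, adjusted p = 0.00692). TNFRSF10B, a TRAIL death receptor, rose in BXPC3 (0.54) and fell in PSN1 (-0.67), a difference of 1.20 ± 0.21 (SE, adjusted p = 0.00396). FDXR, ferredoxin reductase, had 6.05, 8.08, 7.95 and 6.54 CPM in BXPC3 with AM-9747, against 25.1, 20.6, 26.3 and 33.2 CPM with vehicle, and the DNA damage sensor XPC also fell in BXPC3 without passing in PSN1. Their differences were -1.47 and -1.19. CDKN1A, the cell cycle inhibitor p21, passed in neither line: it was 0.14 in BXPC3 (adjusted p = 0.836) and 0.25 in PSN1 (adjusted p = 0.55), with a difference of -0.10 ± 0.38 (SE, adjusted p = 0.913) whose sign changed with the scaling. Dependent on single libraries were the calls of FDXR (13, up to 0.0887 without BXPC3 AM-9747 replicate 4) and XPC (1, up to 0.0526 without BXPC3 AM-9747 replicate 3).

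Of 16 BCL2 family genes, BCL2L1, which encodes the survival protein BCL-XL (-1.74 ± 0.40 SE, adjusted p = 0.0184), and BCL2L11, which encodes the death protein BIM (-1.31), joined BBC3. Both rose in PSN1 and did not pass in BXPC3. The family's shares were 6.25% higher and 12.5% lower, beside 2.59% and 3.61% of all genes. Of 15 cyclin D and CDK genes, CCND1, CCND3 (-1.19) and the CDK inhibitor CDKN2C (-4.12) had a lower response in BXPC3. This count, 20% of the list, was 0 with the mitochondrial share as covariate and 1 with voom or with no filter on low counts. With single libraries left out it was 0 to 4, 4 without PSN1 vehicle replicate 1. CDKN2C had 2.36, 0.743, 0.396 and 0.108 CPM in PSN1 with AM-9747, against 0.0262, 0, 0 and 0.328 CPM with vehicle, and stood at -6.80 without PSN1 vehicle replicate 4. Single libraries ended the calls of BCL2L11 (10, up to 0.103 without BXPC3 vehicle replicate 2), CCND3 (9, up to 0.0703 without BXPC3 AM-9747 replicate 4) and CDKN2C (11, up to 0.104 without PSN1 AM-9747 replicate 1).

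Matrix and mesenchymal genes that differed had the lower response in BXPC3. Of 28 tested members 5 had a lower response in BXPC3 and 0 a higher one (median -0.30). In PSN1 11 rose and 1 fell, and 8 rose with PSN1 fitted by itself. The summed level of the list, which weighs abundant members most, went the other way in PSN1. It was 5313 ± 319 CPM with AM-9747 there, against 7406 ± 911 CPM with vehicle, without overlap. In BXPC3 it was 825 ± 58.6 CPM with AM-9747, against 754 ± 42.5 CPM with vehicle (mean ± SD, n = 4 each), with overlap. The count of members with a lower response was 3 to 8 with single libraries left out, 8 without PSN1 vehicle replicate 1, and 2 with voom. TGFBI, a matrix protein induced by TGF-beta (chr5:136028895-136063818), had 193, 203, 186 and 190 CPM in BXPC3 with AM-9747 and 224, 218, 207 and 204 CPM with vehicle. The PSN1 values were 182, 161, 175 and 172 CPM with AM-9747 and 36.7, 26, 15.8 and 31.1 CPM with vehicle, and the difference was -2.79 ± 0.28 (SE, adjusted p = 5.38e-05). FBN1, fibrillin (-2.19 ± 0.47 SE, adjusted p = 0.0129), the adhesion molecule CDH11 (-2.64), collagen COL5A1 (-2.94) and the transcription factor SNAI2 (-1.47) also rose in PSN1 without passing in BXPC3. FBN1 had 133, 72.2, 67.5 and 57.4 CPM in PSN1 with AM-9747, against 30.3, 22.3, 13.3 and 25.1 CPM with vehicle. The 7 fibroblast markers summed to 49.2 ± 4.69 CPM in BXPC3 with AM-9747, against 28 ± 2.42 CPM with vehicle, and to 192 ± 17.8 CPM in PSN1 with AM-9747, against 70.8 ± 17 CPM with vehicle (SD, n = 4 each). Their part in the result was not tested. Calls lost without single libraries were those of CDH11 (9, up to 0.0668 without BXPC3 AM-9747 replicate 3) and SNAI2 (7, up to 0.0654 without BXPC3 AM-9747 replicate 3).

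Epithelial genes with a lower response in BXPC3 were at low level in PSN1. Of 28 tested members 3 were lower and 0 higher in BXPC3 response (median -0.69). None of the 3 calls held with voom, while the count was 10 with a replicate block and 2 to 9 with single libraries left out, 9 without PSN1 vehicle replicate 1. KRT17, a stress keratin, had 3364 to 6172 CPM in BXPC3 with AM-9747, against 4119 to 7386 CPM with vehicle, and 1.76, 3.23, 2.06 and 2.52 CPM in PSN1 with AM-9747, against 0.184, 0.0881, 0.927 and 0.197 CPM with vehicle (difference -3.01 ± 0.60 SE, adjusted p = 0.00781, or -3.95 without PSN1 vehicle replicate 3). PKP1, a desmosome plaque protein, had 9.61, 7.25, 5.88 and 7.47 CPM in PSN1 with AM-9747, against 2.7, 0.881, 0.327 and 2.00 CPM with vehicle (difference -2.45 ± 0.54 SE, adjusted p = 0.0143). GRHL2, an epithelial transcription factor, had 18 counts in PSN1 with AM-9747 and 0 with vehicle, at least 4.62-fold higher. The defining epithelial marker EPCAM was present in both lines, at 98.8 to 147 CPM in BXPC3 and 5.45 to 20.2 CPM in PSN1. The 6 endothelial markers summed to at most 58.8 CPM in any library and the 8 immune markers to at most 80.3 CPM. Of the immune ones CD4 had a lower response in BXPC3, with 86 counts in PSN1 with AM-9747 and 0 with vehicle, at least 22.1-fold higher. Single libraries ended the call of GRHL2 (10, up to 0.0678 without PSN1 AM-9747 replicate 1), and CD4 stood at -7.48 without PSN1 AM-9747 replicate 3.

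Of 20 lineage transcription factors, FOXA2 and KLF4 had a higher and SOX2 a lower response in BXPC3. FOXA2, a foregut endoderm factor (chr20:22581005-22585455), had 18.2, 22.8, 24.2 and 27.2 CPM in BXPC3 with AM-9747, against 12.9, 11.4, 13.7 and 18.7 CPM with vehicle, and 22.1, 35.6, 39.3 and 36.6 CPM in PSN1 with AM-9747, against 50.7, 57.8, 50.8 and 51 CPM with vehicle. It rose in BXPC3 and fell in PSN1 (difference 1.36 ± 0.30 SE, adjusted p = 0.0131). KLF4 fell in PSN1 and differed by 1.66 ± 0.41 (SE, adjusted p = 0.0273). SOX2 had 46 counts in PSN1 with AM-9747 and 1 with vehicle, a ratio of 52.1 (8.9 to 2103), and a difference of -6.16 ± 0.94 (SE, adjusted p = 0.00149), or -7.96 without PSN1 vehicle replicate 1. Single libraries ended the call of KLF4 (7, up to 0.0607 without BXPC3 AM-9747 replicate 2).

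YAP-TEAD target genes gave calls of both signs. Of 23 tested members 3 had a lower and 1 a higher response in BXPC3. In PSN1 13 rose and 1 fell (median 0.90). The 13 are 56.5% of the list, beside 12.4% of all genes, and 5 rose with PSN1 fitted by itself. The lower count was 1 to 9 with single libraries left out, 9 without PSN1 vehicle replicate 1 and 1 without BXPC3 AM-9747 replicate 3, 6 with DESeq2, 8 with a replicate block and 5 with at least 1 CPM in each line. AMOTL2, an angiomotin that restrains YAP (chr3:134355874-134375479), had 293, 278, 222 and 203 CPM in BXPC3 with AM-9747 and 358, 332, 311 and 248 CPM with vehicle. PSN1 libraries had 36.7, 30.1, 34.6 and 27.2 CPM with AM-9747 and 10.2, 7.22, 9.76 and 6.29 CPM with vehicle (difference -2.27 ± 0.28 SE, adjusted p = 0.000308). MYOF (-2.03) and AMOTL1 (-1.71) rose in PSN1 as well, and IGFBP3, the binding protein of insulin-like growth factors, fell there, to 160.5, 179, 148 and 169 CPM with AM-9747, against 376, 342, 359 and 294 CPM with vehicle (difference 1.61 ± 0.34 SE, adjusted p = 0.0108). Among 19 metalloproteinase genes, MMP25 (-5.69 ± 1.10 SE, adjusted p = 0.0066) and MMP14 (-1.50 ± 0.32 SE, adjusted p = 0.0116) rose in PSN1. Their inhibitor TIMP1 was 0.09 in BXPC3 and fell in PSN1 by 1.41 on the log2 scale, a difference of 1.50 ± 0.38 (SE, adjusted p = 0.0299). MMP25 had 2.54, 2.97, 8.66 and 6.6 CPM in PSN1 with AM-9747, against 0.446, 0, 0 and 0.688 CPM with vehicle, and stood at -6.47 without PSN1 vehicle replicate 4. Leaving out single libraries ended the calls of MYOF (1, up to 0.0526 without BXPC3 AM-9747 replicate 3), AMOTL1 (10, up to 0.0943 without BXPC3 AM-9747 replicate 3) and TIMP1 (8, up to 0.075 without BXPC3 vehicle replicate 1).

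Of 31 tested hypoxia-linked genes, VEGFA and ENO2 had a higher and ADM a lower response in BXPC3. These shares, 6.45% and 3.23%, stand beside 2.59% and 3.61% of all genes. VEGFA, the endothelial growth factor (chr6:43770184-43786487), had 213, 214, 219.8 and 238 CPM in BXPC3 with AM-9747 and 254, 260.4, 242 and 233 CPM with vehicle. In PSN1 the values were 84.1, 78.1, 74.5 and 72.7 CPM with AM-9747 and 236, 314, 145 and 293 CPM with vehicle (difference 1.51 ± 0.28 SE, adjusted p = 0.00498). ENO2, an enolase, fell in PSN1 likewise (difference 1.58 ± 0.32 SE, adjusted p = 0.00804), while the peptide ADM rose there (difference -1.45 ± 0.30 SE, adjusted p = 0.00958). Of 39 NRF2 and glutathione genes, HMOX1 (-2.35), ME1 (-2.08 ± 0.44 SE, adjusted p = 0.0106) and AKR1C3 (-1.84) rose in PSN1 without passing in BXPC3. These are 7.69% of the list, beside 3.61% of all genes. The count was 1 to 17 with single libraries left out, 17 without PSN1 vehicle replicate 1. Of 30 lysosome genes, acid glucosidase GAA fell in both lines, to 2.8, 2.14, 2.59 and 1.91 CPM in BXPC3 with AM-9747, against 20.1, 17.6, 19.5 and 18.9 CPM with vehicle, and to 39.4, 32.9, 58.3 and 42.4 CPM in PSN1 with AM-9747, against 105, 130.4, 154 and 118 CPM with vehicle (difference -1.46 ± 0.28 SE, adjusted p = 0.00617). WIPI1 (-1.20) and CTSA (-0.93) fell in BXPC3 without passing in PSN1. The lysosome count, 10% of its list, was 1 to 14 with single libraries left out, 14 without PSN1 vehicle replicate 1. Without single libraries the calls of HMOX1 (9, up to 0.0719 without BXPC3 AM-9747 replicate 3), AKR1C3 (3, up to 0.0532 without PSN1 AM-9747 replicate 2), WIPI1 (11, up to 0.0739 without BXPC3 vehicle replicate 2) and CTSA (9, up to 0.0739 without BXPC3 AM-9747 replicate 3) were lost.

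Interferon-stimulated genes gave calls of both signs, 2 higher and 3 lower in BXPC3 response of 44 tested. These are 4.54% and 6.82%, beside 2.59% and 3.61% of all genes, and the lower count was 2 to 10 with single libraries left out, 10 without PSN1 vehicle replicate 1. OAS3, an antiviral synthetase (chr12:112938352-112973249), had 33.2, 27, 26.8 and 22.9 CPM in BXPC3 with AM-9747, against 56.7, 64, 57.9 and 47.4 CPM with vehicle, and 28.3, 26.4, 21 and 17.2 CPM in PSN1 with AM-9747, against 16.8, 7.36, 9.16 and 12.2 CPM with vehicle. It fell in BXPC3 and rose in PSN1 (difference -2.07 ± 0.34 SE, adjusted p = 0.00244). OASL (-2.12 ± 0.49 SE, adjusted p = 0.0171) rose in PSN1. IFITM1 (1.51) fell in PSN1, and IRF7 (3.68) had 20 counts in BXPC3 with AM-9747 and 2 with vehicle, a ratio of 10.7 (2.6 to 94.6), with a difference of 5.85 without BXPC3 vehicle replicate 4. HLA-F (2.50, or 1.74 without PSN1 vehicle replicate 3) was the one called of 15 antigen presentation genes and fell in PSN1. Dependent on single libraries were the calls of IFITM1 (6, up to 0.065 without BXPC3 vehicle replicate 1), IRF7 (11, up to 0.107 without BXPC3 vehicle replicate 1) and HLA-F (7, up to 0.0687 without BXPC3 AM-9747 replicate 4).

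The PRMT5 axis itself did not differ past the threshold. PRMT5, the drug's target (chr14:22920511-22929585), had 152, 127, 116 and 105 CPM in BXPC3 with AM-9747, against 109.7, 105, 107 and 91.2 CPM with vehicle, and 127, 82.8, 82.7 and 71.8 CPM in PSN1 with AM-9747, against 54.4, 32.2, 49.4 and 47.5 CPM with vehicle. It did not pass in BXPC3 (0.28) and rose in PSN1 (0.99 ± 0.21 SE, adjusted p = 0.00311), and the difference was -0.71 ± 0.29 (SE, adjusted p = 0.145). Its partner WDR77 (chr1:111439890-111449376) fell in BXPC3 (-0.65 ± 0.17 SE, adjusted p = 0.0263), was -0.32 in PSN1, and differed by -0.33 ± 0.25 (SE, adjusted p = 0.43). MTAP (chr9:21802543-21937651) had 0.475, 0.714, 0.508 and 1.46 CPM in BXPC3 with AM-9747, against 0.281, 0.127, 0.232 and 0.395 CPM with vehicle, and 1.24, 2.31, 1.22 and 1.26 CPM in PSN1 with AM-9747, against 1.28, 1.19, 5.29 and 2.39 CPM with vehicle. These levels are low in all groups, and the difference was 2.34 ± 0.83 (SE, adjusted p = 0.0971), or 1.69 without PSN1 vehicle replicate 3. MAT2A, which makes S-adenosylmethionine, had a difference of -0.48 ± 0.57 (SE, adjusted p = 0.64), or -1.14 without PSN1 vehicle replicate 1. None of 5 methylosome, 7 other PRMT and 17 methionine and polyamine genes passed for the difference, with medians of -0.71, -0.01 and -0.41. At an unadjusted p below 0.05 (edgeR) there were 1, 1 and 2 genes, DESeq2 called 0, 1 and 1, and voom called 0, 1 and 0. The other PRMT gene called by both was PRMT6, a histone arginine methyltransferase, with a difference of -1.98 (edgeR adjusted p = 0.0657). The median SE of a difference was 0.40 over the 12838 genes with at least 1 CPM in each line.

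Splicing genes gave few calls. Of 13 kinases that phosphorylate splicing factors, CLK1 and CLK4 had a higher response in BXPC3. CLK1 (chr2:200853009-200864744) had 44.9, 48.5, 56.9 and 62 CPM in BXPC3 with AM-9747, against 19.1, 19.6, 23.7 and 23.8 CPM with vehicle, and 42.2, 55, 51.8 and 67.3 CPM in PSN1 with AM-9747, against 48.3, 87, 69.6 and 76 CPM with vehicle. The groups were apart in BXPC3 and overlapped in PSN1, with a difference of 1.68 ± 0.29 (SE, adjusted p = 0.00299), and CLK4 differed by 1.47 ± 0.33 (SE, adjusted p = 0.0147). Of 35 SR and hnRNP genes, RBM39 rose in BXPC3 (1.28 ± 0.20, difference 1.08) and SRSF3 rose in PSN1 (0.97 ± 0.22, difference -1.09). This is 2.86% each way, close to the 2.59% higher and 3.61% lower of all genes. Of 33 core spliceosome genes, PRPF4 (-1.44 ± 0.32 SE, adjusted p = 0.0155) and AQR (-1.20 ± 0.27 SE, adjusted p = 0.0164) rose in PSN1. They are 6.06% of that list. None of 23 Sm and snRNP protein genes passed for the difference, though 12 rose in PSN1 (median 0.79). The 12 are 52.2% of the list, beside 12.4% of all genes, and 4 rose with PSN1 fitted by itself. For the difference 6 were below an unadjusted p of 0.05 (edgeR), and DESeq2 called 2 and voom 0. Single libraries ended the calls of RBM39 (10, up to 0.0809 without BXPC3 AM-9747 replicate 4) and SRSF3 (14, up to 0.0981 without BXPC3 AM-9747 replicate 2).

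The remaining lists gave at most 2 calls each. PMVK of sterol synthesis (-1.75) was 1 of 2 called among 33 sterol and fatty acid genes. MARS1 (0.67) was the one called of 20 tRNA synthetases, ERBB2 (-1.45) of 15 growth factor receptor genes, and SDHC (-1.40) of 72 nuclear genes of oxidative phosphorylation. Called shares were 3.03% each way for sterols, 5% higher for synthetases, 6.67% lower for receptors and 1.39% lower for oxidative phosphorylation. Over all genes they were 2.59% higher and 3.61% lower. No gene passed for the difference among 13 mitochondrially encoded, 21 histone, 78 ribosomal protein and 45 ribosome biogenesis genes, nor among the epithelial, fibroblast and endothelial markers. Their medians were 0.89, -0.64, 0.36 and -0.41 for the first 4 lists, where 2, 2, 14 and 6 genes had an unadjusted p below 0.05 (edgeR), DESeq2 called 1, 2, 3 and 0 and voom called 0, 0, 0 and 0. Of the 3 marker lists, the epithelial one had 3 genes below that unadjusted p and the others 0, and DESeq2 and voom called 0 in each. Calls lost without single libraries were those of PMVK (10, up to 0.0749 without PSN1 AM-9747 replicate 1), MARS1 (14, up to 0.107 without BXPC3 vehicle replicate 1), ERBB2 (10, up to 0.0809 without BXPC3 vehicle replicate 1) and SDHC (10, up to 0.0669 without BXPC3 vehicle replicate 1).

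**Figure D5:**
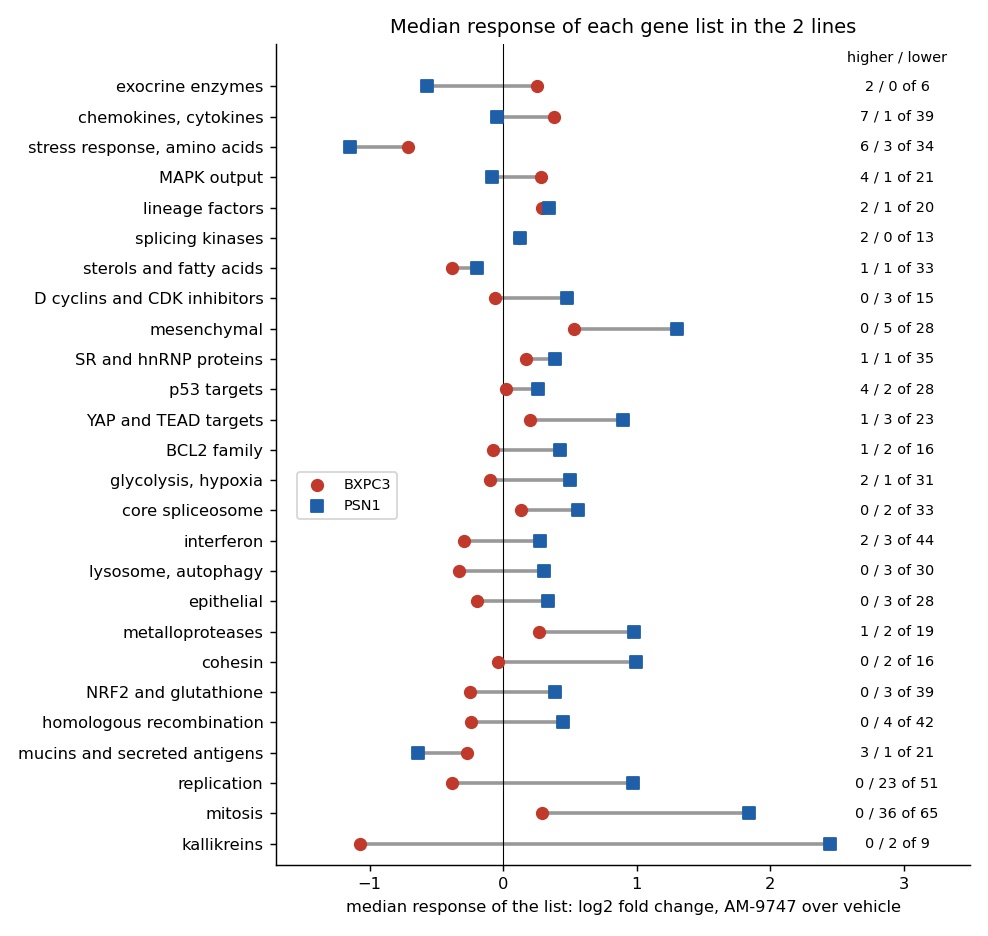
Median log2 response to AM-9747 of each gene list with at least 2 members called for the difference, in BXPC3 and in PSN1, with the number of members whose response was higher or lower in BXPC3 at the right. The mitosis and replication lists lie near or below 0 in BXPC3 and above 0 in PSN1, with 0 higher and 36 and 23 lower members.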

How the data were processed

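RNA was sequenced as stranded poly(A) libraries (NEBNext Ultra II Directional kit, per the labels' protocols). The submitters' processing notes name fastp 0.19.8, HISAT2 2.2.0 with GRCh38, R 4.0.2 and DESeq2 1.34.0, without their order. Which counter and annotation were used is not given in the sources used here. Raw counts per gene were deposited by the authors.

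Here 56271 of 60366 entries were matched to GENCODE 29. The 16 libraries of 4 groups were fitted with edgeR 4.0.16 (quasi-likelihood, TMM scaling, filterByExpr) in R 4.3.3 with limma 3.58.1, with 12 residual degrees of freedom, and the response difference was a contrast of the 4 group means. A gene passed at an adjusted p below 0.05. The filter on low counts works on groups, so a gene may pass through 1 group alone. Positions are those of the genes, 1-based, in GRCh38. Depth limits precision, and a gene at 0 counts could have up to 3 at 95% confidence (counting error only).

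The members and gene lists were chosen with earlier results of these data known. The naming rule took the 10 highest and 10 lowest differences among called protein-coding genes with a mean of at least 5 CPM, counts in every group and no overlap in 1 line or more; up to 5 opposite responses each way; 6 key genes (PRMT5, WDR77, MTAP, MAT2A, MDM4, CDKN1A); and 3 members of each list with 3 or more calls. Any further gene was picked after its values had been seen, and a few genes are not reported here. On simulated data for the difference (200 genes changed among 20366), 4 of 36 calls were false (11.1%), and 4.55% of 2-fold and 50% of 4-fold changes were found. Alternatives were other scalings, DESeq2 1.42.0, voom, filters, a mitochondrial covariate, a replicate block, the joint fit of 24 libraries, each line alone and each library left out; 2 were added after seeing the data (PSN1 vehicle replicates 2 and 3 left out together, and at least 1 CPM in each line).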

Additional observations from a re-analysis of the deposited data

Results flagged for a closer look

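Of the 127 genes named, 122 had a response to AM-9747 that differed between BXPC3 and PSN1 by the test of the difference itself (edgeR, adjusted p below 0.05). The log2 differences, BXPC3 minus PSN1, are given here by fitted value.

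The response was lower in BXPC3 at 72 of them. Far below zero were PRSS12 (-6.56), FSTL1 (-6.42), SLC44A4 (-6.16), SOX2 (-6.16), NGFR (-5.81), KLK10 (-5.71), MMP25 (-5.69), CPA4 (-5.65), NYNRIN (-5.26), FLG (-5.02), DTX4 (-4.80), TTC9 (-4.61), CDKN2C (-4.12) and CEACAM6 (-4.05). Next came WNT10A (-3.58), INCENP (-3.38), KRT17 (-3.01), COL5A1 (-2.94), RRM1 (-2.79), TGFBI (-2.79), TK1 (-2.75), GINS4 (-2.75), CDH11 (-2.64), PKP1 (-2.45), RRM2 (1 entry) (-2.44), ANLN (-2.42), HMOX1 (-2.35) and BIRC5 (-2.27). These were followed by MCM4 (-2.27), AMOTL2 (-2.27), ORC1 (-2.25), FBN1 (-2.19), OASL (-2.12), ME1 (-2.08), OAS3 (-2.07), MYOF (-2.03), CDCA5 (-2.01), AKR1C3 (-1.84), PMVK (-1.75), BCL2L1 (-1.74), CDK1 (-1.72) and AMOTL1 (-1.71). Smaller were BRCA1 (-1.66), SMC1A (-1.63), E2F1 (-1.54), CXCL8 (-1.54), RAD54L (-1.53), MMP14 (-1.50), FDXR (-1.47), SNAI2 (-1.47), AURKA (-1.46), GAA (-1.46), ADM (-1.45), ERBB2 (-1.45), PRPF4 (-1.44) and RFC5 (-1.43). Then came SDHC (-1.40), UBE2T (-1.35), BCL2L11 (-1.31), ATF3 (-1.27), CCND1 (-1.23), WIPI1 (-1.20), AQR (-1.20), CCND3 (-1.19), XPC (-1.19), PYCR1 (-1.10), SRSF3 (-1.09) and CTSA (-0.93).

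It was higher in BXPC3 at 50 of them. At the upper end were PAEP (5.17), PRSS1 (4.65), PRSS2 (4.13), CAPN8 (4.09), FUT1 (3.88), IRF7 (3.68), MFNG (3.34), F2RL3 (3.34), DOC2A (3.34), IL33 (3.26), GABRR2 (3.23), CSF2 (2.76), CX3CL1 (2.73) and HLA-F (2.50). After these came SESN2 (2.30), CSF3 (2.26), CITED4 (2.26), ANAPC16 (2.25), TFF2 (2.25), SLC25A37 (2.22), TFF1 (2.18), APOE (2.09), CHAC1 (2.08), TFF3 (2.00), IL6 (1.93), TRIB3 (1.87), DUSP2 (1.73) and TNFAIP3 (1.72). In the middle were CLK1 (1.68), BBC3 (1.68), KLF4 (1.66), CTH (1.65), IGFBP3 (1.61), ENO2 (1.58), IFITM1 (1.51), VEGFA (1.51), SPRY4 (1.51), TIMP1 (1.50), CLK4 (1.47), DUSP6 (1.47), DUSP5 (1.44) and FOXA2 (1.36). Lower still were ASNS (1.32), MDM4 (1.31), TNFRSF10B (1.20), EGR1 (1.12), RBM39 (1.08), ATF4 (1.08) and MARS1 (0.67).

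The remaining 5 had 0 counts in 1 group, so that their fitted differences depend on the prior count and have no place in the order: CD4 (-9.14), KLK8 (-7.42), CBS (-6.25), GRHL2 (-5.38) and CCL21 (8.26). KLK8 stood at -4.65 without PSN1 AM-9747 replicate 4 and CCL21 at 4.52 without PSN1 vehicle replicate 1. Fitted values of genes with few counts in 1 group, such as SLC44A4 and SOX2, are uncertain in the same way.

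In 62 of the 508 groups of 4 libraries, 1 library lay far from the other 3 by Dixon's criterion, where chance gives about 1 in 20. In 11 of them the other 3 libraries were at 0, which fixes the criterion, so this chance rate does not hold for those. BXPC3 vehicle replicate 4 stood apart for KLK10 (149 CPM), WNT10A (174 CPM), WDR77 (97.8 CPM), MAT2A (191 CPM), GINS4 (5.75 CPM), CHAC1 (40.6 CPM), TRIB3 (131 CPM), ATF4 (594 CPM), PYCR1 (69.7 CPM), IRF7 (0.0494 CPM), CDH11 (13.8 CPM), GRHL2 (74 CPM), KRT17 (7386 CPM), TIMP1 (619.8 CPM), AKR1C3 (207 CPM), IFITM1 (233 CPM), SMC1A (40.7 CPM), UBE2T (35.9 CPM) and HLA-F (37 CPM). PSN1 vehicle replicate 1 stood apart for PRSS12 (0.157 CPM), SLC44A4 (0.0262 CPM), NGFR (0.184 CPM), KLK10 (0.0787 CPM), NYNRIN (0.367 CPM), DTX4 (0.236 CPM), TTC9 (0.105 CPM), RRM1 (18.5 CPM), GINS4 (3.23 CPM), CCL21 (0.131 CPM), SOX2 (0.0262 CPM), ENO2 (75.4 CPM), CTSA (109.5 CPM), CTH (33 CPM) and SDHC (81.1 CPM). PSN1 vehicle replicate 3 stood apart for PAEP (69 CPM), SESN2 (56.3 CPM), KRT17 (0.927 CPM), MYOF (10.4 CPM), TIMP1 (25410 CPM) and HLA-F (48.1 CPM). PSN1 AM-9747 replicate 1 stood apart for BIRC5 (60.9 CPM), AMOTL1 (61.4 CPM), BCL2L1 (132 CPM) and PRPF4 (73.5 CPM). PSN1 vehicle replicate 4 stood apart for FLG (0.426 CPM), WNT10A (0.328 CPM), CDKN2C (0.328 CPM) and SNAI2 (0.524 CPM). BXPC3 AM-9747 replicate 4 stood apart for OASL (19.7 CPM), DUSP2 (5.67 CPM) and CX3CL1 (0.583 CPM). BXPC3 AM-9747 replicate 1 stood apart for WNT10A (29.98 CPM) and TNFRSF10B (294 CPM). BXPC3 vehicle replicate 2 stood apart for RFC5 (42.5 CPM) and IGFBP3 (0.127 CPM). PSN1 AM-9747 replicate 3 stood apart for INCENP (239 CPM) and CD4 (1.84 CPM). BXPC3 AM-9747 replicate 2 stood apart for IGFBP3 (0.571 CPM). BXPC3 vehicle replicate 1 stood apart for EGR1 (279.5 CPM). PSN1 AM-9747 replicate 2 stood apart for MTAP (2.31 CPM). PSN1 AM-9747 replicate 4 stood apart for KLK8 (0.325 CPM). PSN1 vehicle replicate 2 stood apart for FOXA2 (57.8 CPM). No cause was tested.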

How the results depend on the processing

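The number of genes whose response differed was 1309 and stayed within 1.5 times that under voom (1127), no filter on low counts (981), a joint fit of 24 libraries (1906), the mitochondrial covariate (1086), size factors (1334), no scaling (1371), at least 5 CPM (1324), no mitochondrial genes (1227), at least 1 CPM in each line (1229) and without PSN1 vehicle replicates 2 and 3 (965). It was 2716 with DESeq2 (1479 higher, 1237 lower) and 617 to 4412 with single libraries left out, lowest without BXPC3 AM-9747 replicate 3 and highest without PSN1 vehicle replicate 1 (1403 higher, 3009 lower). The share of higher calls was 41.7% with TMM, 53.2% with size factors (709 higher, 625 lower) and 23.9% without scaling (328 higher, 1043 lower), where the median of all differences was -0.15, -0.01 and -0.41. With at least 5 CPM 712 were higher and 612 lower.

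BXPC3 response calls were 1873, against 2952 with DESeq2, 5651 with voom, 2969 with the mitochondrial covariate, 3105 without PSN1 vehicle replicates 2 and 3, 5158 for the line alone and 1163 to 2811 with single libraries left out. PSN1 response calls were 4632, against 2549, 3071, 2617 and 1954 under voom, the covariate, those replicates left out and the line alone, and 3301 to 7345 with single libraries left out. Mitosis genes with a lower response numbered 21 to 51 with single libraries left out. The cause of these shifts was not tested.

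Whether replicate numbers pair the samples is unsettled. Correlations of same-numbered deviations were 0.227, 0.0576, -0.0296 and 0.356 in BXPC3 and 0.454, -0.074, 0.115 and -0.0443 in PSN1. The main fit did not pair them. A replicate block gave 3232 genes (1067 higher, 2165 lower).

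Of 122 named genes called, 69 kept their call under every alternative in which they were tested (all 28 for 53 of these, 26 or 27 for 16), 19 lost it under 1 to 5 and 34 under 6 or more. The sign of CDKN1A reversed to 0.023 with size factors, 0.0234 with DESeq2, 0.0717 at 5 CPM, 0.38 with the covariate, 0.0844 without PSN1 AM-9747 replicate 1 (single libraries left out gave -0.45 to 0.0844), 0.0738 without PSN1 vehicle replicate 3 and 0.22 without vehicle replicates 2 and 3. MAT2A reversed to 0.50 with the covariate and 0.11 without those 2 libraries. Depth limits genes below 1 CPM most.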
